A study of Mus musculus with 36 samples.

Results

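Nlk encodes Nemo-like kinase, a serine/threonine kinase known to phosphorylate the TCF/LEF transcription factors. It was described here together with 8 genes of canonical WNT signalling: Fzd7, Lrp6, Gsk3b, Ctnnb1, Axin2, Tcf7l2, Lef1 and Dkk3. Every probe set annotated to 1 of these genes alone was taken, which gave 26 of the 34945 single-gene probe sets of the array platform and 9 of 18193 genes. Nlk had 3 probe sets, Gsk3b 6, Tcf7l2 4, Ctnnb1 3, and Fzd7, Lrp6, Axin2, Lef1 and Dkk3 had 2 each. No probe set annotated to several genes held any of them.

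In canonical WNT signalling, a WNT ligand binds a Frizzled receptor and its co-receptor LRP5 or LRP6 at the cell surface. A cytoplasmic complex with AXIN, APC and the kinase GSK3B, which otherwise marks β-catenin for degradation, is then inhibited, and β-catenin enters the nucleus and activates genes with the TCF/LEF factors. In the brain the pathway is known for its part in patterning, in neurogenesis and in the upkeep of synapses.

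The mice carried a tamoxifen-inducible Cre recombinase under the Camk2a promoter (Camk2a-CreERT2) and 2 floxed Dicer alleles. Camk2a marks excitatory forebrain neurons, so recombination was limited to part of the cells in each sample. At 8 weeks of age they received 10 mg of tamoxifen over 5 days (cKO) or vehicle (control), and cortex, hypothalamus and hippocampus were collected 4 or 8 weeks later. RNA was measured on 36 Affymetrix expression arrays covering the mouse genome, 3 arrays in each of the 12 groups, and each array of a group came from another animal. By the animal numbers of the labels, 11 animals gave both cortex and hypothalamus arrays. At 4 weeks cortex control replicate 3 and hypothalamus control replicate 1 had no partner from the same animal. The labels give 12 cKO and 13 control animals over the 3 tissues, whereas the methods give 12 of each. The hippocampus arrays came from other animals. All groups shared the same Cre and floxed genotype and were of the strain C57BL/6J, so controls differed in receiving vehicle in place of tamoxifen. Values are log2 signals, normalized by RMA for each tissue, so levels were compared within a tissue and within a probe set only.

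The arrays were checked against their groups and their tissue labels. Over the tested genes, 10 of the 36 arrays correlated less with their own group than with the other group of that time. Of these, 3 were of the cortex, 3 of the hypothalamus and 4 labelled hippocampus. Such a correlation does not by itself show that a label is wrong. In the cortex at 4 weeks, control replicate 3 correlated less with its own group (mean r = 0.970) than with the cKO arrays (0.974), and cKO replicate 3 correlated less with its own group (0.966) than with the controls (0.981). At 8 weeks, the array less like its own group was cKO replicate 3 (0.989, against 0.992 with the controls), and cKO replicate 2 had the lowest correlation with its own group (0.984, against 0.977 with the controls). The hypothalamus arrays held high signals of Pmch (13.27 to 13.59) and Hcrt (11.31 to 12.82), neuropeptides of that tissue, and the cortex arrays held Slc17a7 (9.19 to 9.52), the vesicular glutamate transporter of cortical excitatory neurons. In the arrays labelled hippocampus several defining genes of hippocampal and other forebrain excitatory neurons were dim, except in 1 array. Neurod6, a transcription factor of forebrain excitatory neurons, was at 2.68 to 3.31 in 11 arrays and at 9.05 in cKO replicate 1 at 8 weeks. Slc17a7 was at 3.74 to 4.41 in the 11 arrays and at 7.56 in that one, and all 8 listed hippocampal markers were highest there, among them Lct (8.51 against 3.24 to 3.66), Spink8 (8.36 against 3.31 to 3.82), Dsp (8.11 against 3.24 to 3.69), C1ql2 (8.34 against 5.89 to 6.71) and Prox1 (6.25 against 4.02 to 4.78). The other 3 were not dim in the 11 arrays: Wfs1 was at 8.65 to 9.16 against 9.58, Fibcd1 at 6.66 to 7.67 against 7.75 and Zbtb20 at 8.73 to 9.66 against 10.55. Of 9 measured markers of excitatory neurons, 7 were highest in cKO replicate 1 at 8 weeks, and not all were dim elsewhere. Camk2a was at 9.78 to 10.51 in the 11 arrays against 11.81, and Nrgn at 9.64 to 10.91 against 11.23. Cux2 and Mef2c were highest in cKO replicate 2 at 8 weeks. Pax7 (7.85 to 9.05), Otx2 (8.34 to 9.68) and Gata3 (7.02 to 7.80), developmental regulators not known as markers of hippocampal neurons and chosen after their values were seen, were high in all 12. These arrays are therefore called "labelled hippocampus" below, and no other tissue name is given to them.

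Nlk was lower in the cKO cortex than in the control cortex 4 weeks after tamoxifen on the most variable of its probe sets, and its probe sets did not share one pattern over the arrays. On probe set 1456467_s_at, the cKO arrays read 5.62, 5.20 and 5.28 (log2) and the control arrays 7.45, 7.60 and 5.62. The groups met at 5.62, since control replicate 3 lay at the level of the highest cKO array and far below the other controls. The difference was -1.53 (SE 0.45, adjusted p = 0.143 from limma at the study's FDR of 15%), which corresponds to a signal that fell by 65.3%. Nlk and Fzd7 were the members called in this comparison, 2 of 9 genes, and 5.23% of all tested genes were called. Of all tested genes, 0.979% were called lower, as Nlk was. Nlk stands on the study's own list of changed cortex transcripts, which was chosen on these arrays, so the call is not independent evidence of its direction. The methods give the number that passed the filter as probe sets, before the step to 1 probe set for each gene. A figure legend of the study gives the same cortex number as genes. Here the number was used as that of genes. Taken as probe sets, it left 9632 genes, of which 3.25% were called, and Nlk was no longer called (adjusted p = 0.155). Fzd7 was then below the filter.

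The other probe sets of Nlk gave smaller differences in the same direction. On 1435970_at, the 4-week signal was 10.45, 10.40 and 10.18 in cKO and 10.96, 10.96 and 10.21 in controls. Control replicate 3 again lay within the cKO values. On 1419112_at, the cKO arrays were at 9.13, 9.34 and 10.35 and the controls at 10.42, 10.34 and 10.43. Here cKO replicate 3 lay at the control level, and control replicate 3 was not low. In a fit over all 45037 probe sets other than the array's controls, the differences were -1.53 (SE 0.44, adjusted p = 0.159) for 1456467_s_at, -0.37 (SE 0.18, adjusted p = 0.296) for 1435970_at and -0.79 (SE 0.28, adjusted p = 0.197) for 1419112_at. None of the 3 passed the threshold in that fit, in which 1.77% of probe sets were called, and Fzd7 1450044_at was the 1 member probe set that did.

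**Figure D1:**
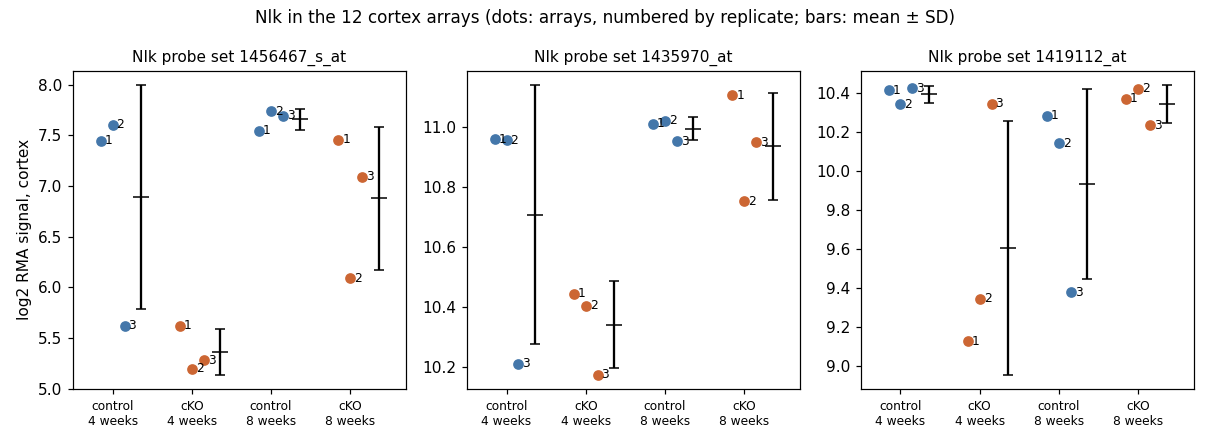
Log2 RMA signal of the 3 probe sets of Nlk in the 12 cortex arrays, with 1 dot for each array numbered by replicate, and the mean ± SD of each group of 3 beside it. On 1456467_s_at and 1435970_at control replicate 3 lies with the cKO arrays at 4 weeks, and on 1419112_at cKO replicate 3 lies with the controls.

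At 8 weeks, 1456467_s_at was at 7.45, 6.09 and 7.09 in the cKO cortex and at 7.54, 7.74 and 7.69 in the control cortex. All cKO arrays lay below all controls, replicate 2 by the widest margin, and the difference of -0.78 (SE 0.45, adjusted p = 0.869) did not pass the threshold. Without cKO replicate 2 the 8-week difference was -0.38. None of the members was called in the cortex at 8 weeks, where 0% of all genes were called and 697 had an unadjusted p under 0.05. On 1435970_at the difference was -0.06 (SE 0.18) and on 1419112_at it was 0.41 (SE 0.28). The latter was set by control replicate 3, at 9.38 against 10.29 and 10.14 in the other controls, whereas cKO arrays read 10.37, 10.42 and 10.24. The interaction of time and treatment for Nlk, its 8-week difference minus its 4-week difference, was 0.75 (SE 0.64, adjusted p = 0.656). It was not called, and neither was that of any other member, beside 0.0068% of genes called and 1808 at an unadjusted p under 0.05. From 4 to 8 weeks Nlk changed by 1.51 in cKO mice (SE 0.45, adjusted p = 0.197) and by 0.77 in controls (SE 0.45, adjusted p = 0.667). Neither was called, beside 0% and 0.0068% of genes.

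The 2 patterns of Nlk ran through other probe sets. Over the 12 cortex arrays 1456467_s_at and 1435970_at correlated with r = 0.938 (0.936 after the group means were subtracted), whereas 1456467_s_at and 1419112_at correlated with r = 0.269 (-0.145). These are descriptions over 12 arrays that share tissue and normalization. Among the genes whose probe set followed 1456467_s_at most closely over the 12 arrays were Ywhae (r = 0.996), a 14-3-3 protein, Psmc4 (0.995), a subunit of the proteasome, Cnbp (0.989), a nucleic acid-binding protein, and Mapk10 (0.988), the neuronal JNK kinase. At 4 weeks their differences were -1.30 for Ywhae, -1.06 for Psmc4, -1.64 for Cnbp and -0.72 for Mapk10, and none was called. After the group means were subtracted the closest were Etfrf1 (0.997), Acsl4 (0.994), Tmed9 (0.994), Ywhae (0.994) and Trappc13 (0.994).

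The arrays with low 1456467_s_at also differed in markers of other cells. The median signal of 20 leptomeningeal markers, relative to the mean of the 12 cortex arrays, was 0.55, 0.43 and 0.32 in the 4-week cKO arrays and -0.47, -0.36 and 0.02 in the controls, with control replicate 3 the highest of its group. At 8 weeks the same median was 0.03, 0.17 and -0.11 in cKO and -0.16, -0.30 and -0.04 in controls, with cKO replicate 2 the highest of its group. All 20 markers had a positive difference at 4 weeks and 14 were called, beside 4.25% of all genes called higher. The marker lists were chosen with earlier results of these data known. Over 6 measured markers of cortical layers the same score was -0.61, -0.75 and -0.45 in the 4-week cKO arrays and 0.26, 0.32 and 0.01 in the controls. Of the 6, 2 were called lower, beside 0.979% of all genes. The score of 9 excitatory neuron markers, some in both lists, differed less (-0.20, -0.31 and -0.002 in cKO, 0.18, 0.15 and 0.03 in controls). That of 7 hypothalamic markers was 0.22, 0.17 and 0.14 in cKO and -0.05, -0.05 and -0.11 in controls. The astrocyte score had a mean of 0.05 in both groups. All scores used the most variable probe set of each gene. The 3′ minus 5′ signal of the array's actin control probe sets, a measure of RNA quality, was lower in the arrays with low 1456467_s_at, with less 3′ relative to 5′ signal. It was 1.12, 1.12 and 1.14 in the 4-week cKO arrays and 1.30, 1.33 and 1.07 in the controls, and 1.35, 1.18 and 1.28 in the 8-week cKO arrays and 1.37, 1.48 and 1.34 in the controls. Among the 4-week controls replicate 3 was the lowest, and among the 8-week cKO arrays replicate 2, as for 1456467_s_at. How well the actin measure reflects RNA quality with the study's target kit (Ambion WT Expression) was not tested. The part of these markers and of RNA quality in the Nlk values was not tested. In whole tissue, fewer cells of a type and less RNA per cell cannot be told apart.

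Probe set 1419112_at moved over the arrays with a list of 18 nuclear-retained and intron-rich transcripts. The list's median was -1.05, -0.54 and 0.27 in the 4-week cKO arrays and 0.38, 0.43 and 0.28 in the controls. At 8 weeks that median was 0.38, 0.27 and 0.17 in cKO and 0.10, -0.05 and -0.43 in controls. Thus cKO replicates 1 and 2 at 4 weeks and control replicate 3 at 8 weeks were low in both. The actin measure was 1.12, 1.12 and 1.14 in the 4-week cKO arrays, without the gap between replicates 1 and 2 and replicate 3. Among the 8-week controls replicate 3 was the lowest in it (1.34). Whether the list reflects RNA quality, and the part of RNA quality in these values, was not tested.

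**Figure D2:**
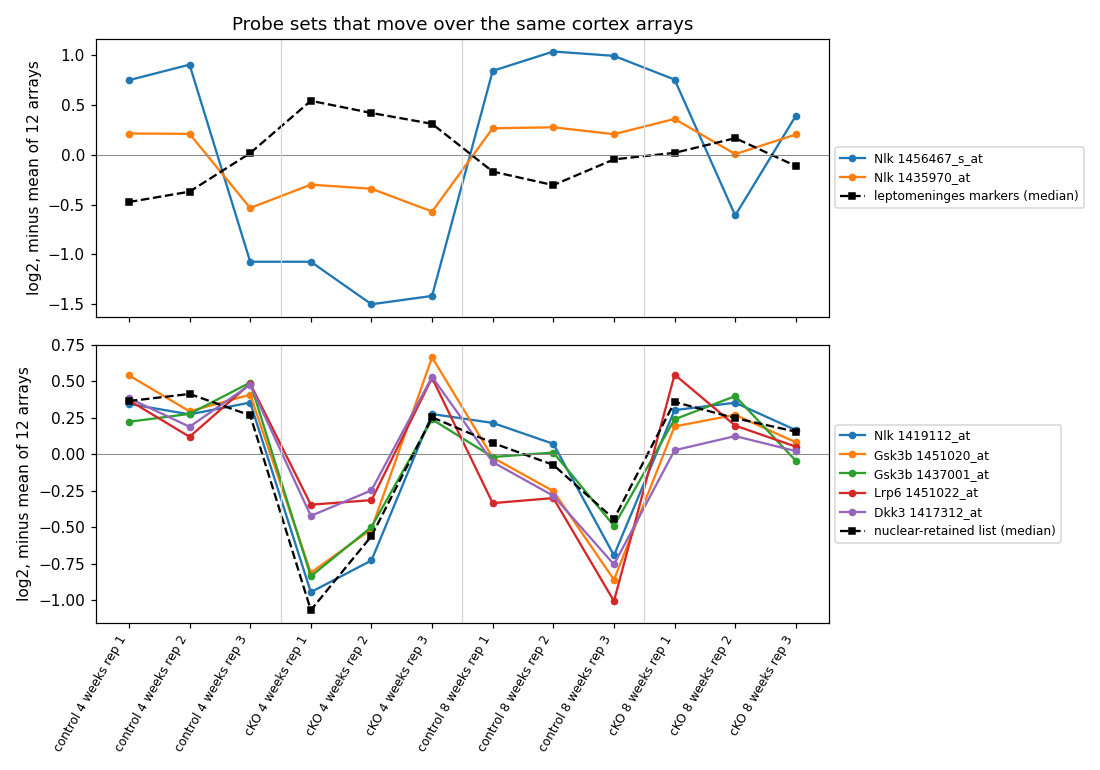
Log2 signal minus the mean of the 12 cortex arrays, by array, for member probe sets (dots) and for the median of a marker list (dashed line with squares). The upper panel shows 1456467_s_at and 1435970_at of Nlk, low in 4-week control replicate 3 and in all 4-week cKO arrays. The lower panel shows Nlk 1419112_at with probe sets of Gsk3b, Lrp6 and Dkk3, which are low in 4-week cKO replicates 1 and 2 and in 8-week control replicate 3. Lrp6 and Dkk3 are about as low in other 8-week controls as in 4-week cKO replicate 2.

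In the hypothalamus no probe set of Nlk separated the groups. On 1456467_s_at the signal was 7.41, 6.89 and 7.26 in cKO and 7.49, 7.52 and 7.06 in controls at 4 weeks, and 7.48, 7.46 and 7.37 in cKO and 7.22, 7.59 and 7.40 in controls at 8 weeks. The groups overlapped at both times, with differences of -0.17 (SE 0.15, adjusted p = 0.998) and 0.03 (SE 0.15, adjusted p = 0.999). The leptomeningeal score was highest in 4-week control replicate 1 (1.11), 8-week cKO replicate 3 (1.77) and 8-week control replicate 3 (1.24). There 1456467_s_at was at 7.49, 7.37 and 7.40, within the range of the other hypothalamus arrays. Among the arrays labelled hippocampus the score was highest in 4-week control replicates 1 (0.59) and 3 (0.46) and cKO replicate 2 (0.31). Their 1456467_s_at signals were 6.70, 6.38 and 6.40, and the lowest signal, 6.02, was in 4-week control replicate 2 (score -0.01). A relation of score and signal was not tested. In the arrays labelled hippocampus the signal was 6.69, 6.40 and 6.71 in cKO and 6.70, 6.02 and 6.38 in controls at 4 weeks, and 6.80, 6.54 and 6.46 in cKO and 6.72, 6.70 and 6.75 in controls at 8 weeks. The differences there were 0.23 (SE 0.16, adjusted p = 0.860) and -0.12 (SE 0.16, adjusted p = 0.858). On 1419112_at the labelled hippocampus signal at 8 weeks was 9.29, 9.28 and 9.27 in cKO and 9.14, 9.02 and 8.90 in controls, without overlap and in the other direction. That difference was 0.26 (SE 0.14, adjusted p = 0.840 over all probe sets), against -0.12 (SE 0.14) at 4 weeks, when cKO replicate 3 was at 8.70 and the other arrays at 9.15 to 9.31. On 1435970_at the differences were 0.04 (SE 0.08) and -0.04 (SE 0.08). In the hypothalamus they were 0.01 (SE 0.09) at both times for 1419112_at, and -0.09 (SE 0.08) and 0.03 (SE 0.08) for 1435970_at. No member was called in the hypothalamus or in the arrays labelled hippocampus at either time. There limma called 0% of all tested genes, with 425 and 1023 genes at an unadjusted p under 0.05 in the hypothalamus at 4 and 8 weeks and 917 and 858 in the arrays labelled hippocampus.

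The 4-week change of Nlk differed between cortex and hypothalamus by -1.43 (SE 0.49, adjusted p = 0.111) in a fit that joined arrays of the same animal, and it was called. In that comparison 17.1% of the genes tested in both tissues were called, and Nlk and Fzd7 were called among 8 members tested. The difference between cortex and labelled hippocampus was -1.76 (SE 0.52, adjusted p = 0.176) for Nlk and 0.68 (SE 0.20, adjusted p = 0.166) for Fzd7, neither called, with 1.06% of genes called. The arrays of that comparison came from separate sets of animals. With the arrays of an animal taken as independent, no member was called between cortex and hypothalamus. None was called between tissues at 8 weeks. The 4-week calls rest on the cortex arrays on which the study's list with Nlk and Fzd7 was chosen, so they are not independent evidence.

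Among the receptors, Fzd7, a Frizzled receptor for WNT ligands, was higher in the cKO cortex at 4 weeks. On 1450044_at the signal was 6.06, 6.08 and 5.62 in cKO and 5.15, 5.38 and 5.50 in controls, without overlap. In the same comparison 17.1% of all probe sets did not overlap between groups, and 1.43% were called higher in the fit over all probe sets. The difference was 0.58 (SE 0.15, adjusted p = 0.131), a rise of 49.1%, and 4.25% of tested genes were called higher. Fzd7 too stands on the study's list of changed cortex transcripts and is not independent evidence. Its second probe set, 1450043_at, was at 5.13, 5.25 and 5.42 in cKO and 5.03, 5.15 and 5.40 in controls. These groups overlapped and differed by 0.08 (SE 0.16).

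At 8 weeks Fzd7 1450044_at was at 5.59, 5.68 and 5.72 in cKO and 5.47, 5.58 and 5.90 in controls, a difference of 0.01 (SE 0.15). The interaction was -0.56 (SE 0.22, adjusted p = 0.353) and was not called. In the hypothalamus the 4-week difference was -0.21 (SE 0.23), and the change in cortex exceeded it by 0.77 (SE 0.28, adjusted p = 0.119), which was called.

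Lrp6, the WNT co-receptor, was measured by 2 probe sets that did not move together (r = -0.464 over the 12 cortex arrays). On 1451022_at the 4-week signal was 5.40, 5.44 and 6.27 in cKO and 6.12, 5.87 and 6.23 in controls, and the 8-week signal was 6.30, 5.95 and 5.80 in cKO and 5.42, 5.45 and 4.75 in controls. The 4-week cKO array at the control level was replicate 3, and at 8 weeks every cKO array lay above every control. The differences were -0.37 (SE 0.25, adjusted p = 0.363) at 4 weeks and 0.81 (SE 0.25, adjusted p = 0.869) at 8 weeks, and their difference of 1.18 (SE 0.35, adjusted p = 0.350) was not called. On 1428500_at the differences were 0.05 (SE 0.11) and -0.09 (SE 0.11). In control mice alone, Lrp6 1451022_at at 8 weeks differed from that at 4 weeks by -0.87 (SE 0.25, adjusted p = 0.632), which was not called, and 0.0068% of genes were called there.

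In the cytoplasmic chain, the 6 probe sets of Gsk3b, the kinase that marks β-catenin for degradation, split by direction in the cortex at 4 weeks. On 1451020_at the signal was 7.01, 7.31 and 8.49 in cKO and 8.36, 8.12 and 8.23 in controls. On 1437001_at the cKO arrays were at 8.17, 8.51 and 9.25 and the controls at 9.23, 9.29 and 9.50. In both, cKO replicates 1 and 2 were low and replicate 3 was not, as for Nlk 1419112_at. The differences were -0.63 (SE 0.30) for 1451020_at, -0.69 (SE 0.23) for 1437001_at and -0.22 (SE 0.19) for 1439949_at.

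The other 3 probe sets of Gsk3b were higher in cKO mice, by 0.30 (SE 0.10) for 1434439_at, 0.32 (SE 0.17) for 1439931_at and 0.17 (SE 0.11) for 1454958_at. On 1434439_at the signal was 8.36, 8.43 and 8.16 in cKO and 7.95, 7.93 and 8.16 in controls, and the groups did not overlap, though replicate 3 of both groups lay within 0.01 of each other. None of the 6 was called, with adjusted p-values from 0.188 (1437001_at) to 0.532 (1439949_at) over all probe sets. Over the 12 cortex arrays 1451020_at correlated with 1437001_at at r = 0.907 and with 1454958_at at r = -0.788. The direction for the gene thus depended on the probe set. The most variable one, 1451020_at, gave -0.63 (SE 0.31, adjusted p = 0.244) at 4 weeks and 0.56 (SE 0.31, adjusted p = 0.869) at 8 weeks in the fit of 1 probe set per gene, and the one of highest mean, 1454958_at, gave 0.17 at 4 weeks.

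Gsk3b 1451020_at was also low in single arrays elsewhere. In the arrays labelled hippocampus the signal was 8.77, 8.67 and 7.67 in cKO and 8.85, 8.94 and 8.87 in controls at 4 weeks. In the hypothalamus the cKO arrays were at 9.20, 9.22 and 9.08 and the controls at 8.42, 9.24 and 9.14. The nuclear-retained list was at -0.54 in the low array of the first set, cKO replicate 3, and at -0.37 in the low array of the second, control replicate 1, against -0.17 to 0.12 and -0.01 to 0.09 in the other arrays of those tissues.

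Axin2, a scaffold of the degradation complex and a known target of the pathway, was close to level on 1436845_at. The cortex signal at 4 weeks was 8.12, 8.08 and 7.97 in cKO and 7.79, 7.83 and 8.32 in controls, so that control replicate 3 was above all cKO arrays, and the difference was 0.08 (SE 0.13, adjusted p = 0.713). At 8 weeks it was 0.00 (SE 0.13, adjusted p = 0.997). Without control replicate 3 the 4-week difference was 0.25 (SE 0.09, adjusted p = 0.0765), a call made in a fit that called 46.3% of all genes. The other probe set, 1421341_at, lay below the filter on low signals in all 3 tissues.

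Ctnnb1, which encodes β-catenin, ranged from 11.72 to 12.18 over the 12 cortex arrays on 1420811_a_at. Its 3 probe sets differed by -0.11 (SE 0.13), 0.11 (SE 0.12) and 0.12 (SE 0.09) at 4 weeks. At 8 weeks 1430533_a_at was at 7.55, 7.48 and 7.38 in cKO and 7.35, 7.23 and 7.03 in controls, without overlap, and differed by 0.26 (SE 0.12, adjusted p = 0.869). In the hypothalamus the 3 probe sets of Ctnnb1 correlated over the arrays at r = 0.767 to 0.890, whereas in the cortex 1420811_a_at and 1430533_a_at correlated at r = -0.429.

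**Figure D3:**
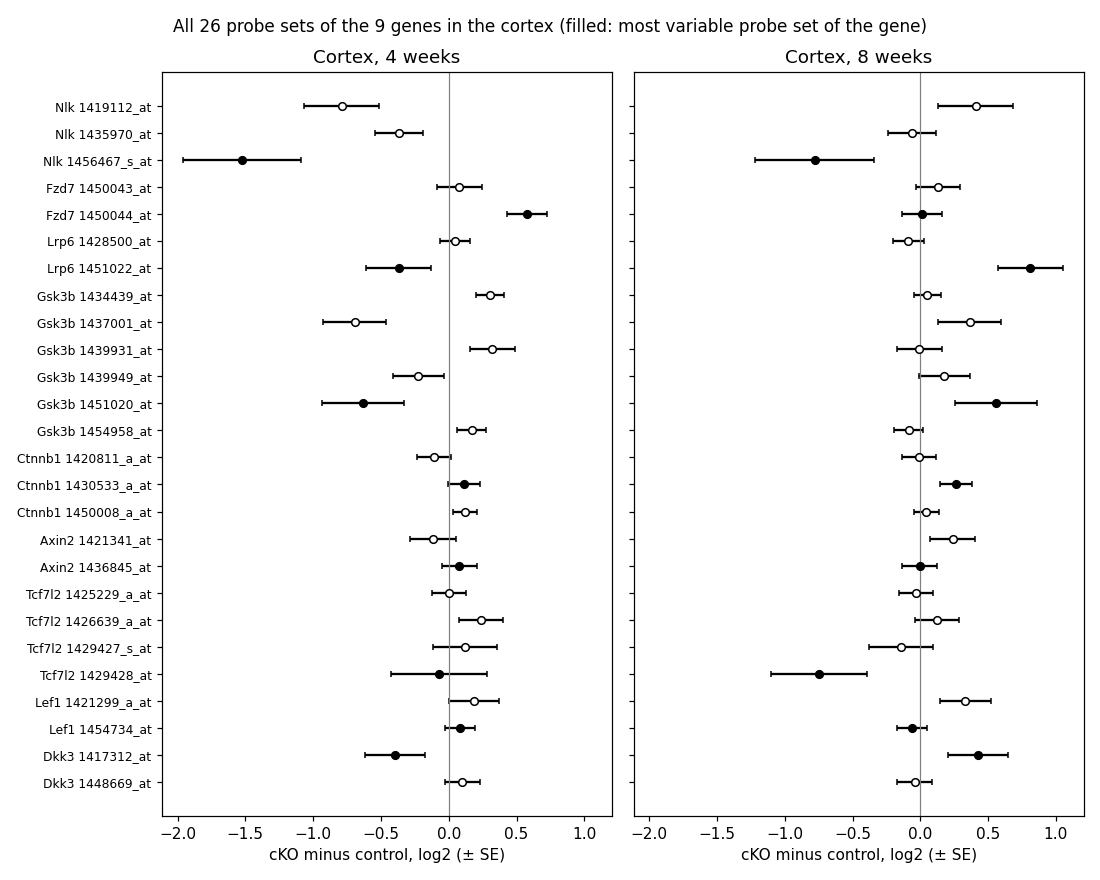
Log2-scale difference in the cortex between cKO mice and their controls at 4 weeks (left) and 8 weeks (right) for all 26 probe sets, from the fit over all probe sets, with bars of ± SE and filled dots for the most variable probe set of a gene. The 3 probe sets of Nlk lie below 0 at 4 weeks, and those of Gsk3b, Lrp6 and Dkk3 lie on both sides.

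Of the nuclear factors, Tcf7l2 and Lef1 bind DNA and recruit β-catenin. Both were dim in the cortex: 3 of the 4 probe sets of Tcf7l2 and 1 of the 2 of Lef1 lay below the filter there. Tcf7l2 1429428_at was at 4.21, 4.86 and 4.88 in cKO and 5.34, 4.59 and 4.23 in controls at 4 weeks (difference -0.07, SE 0.37). At 8 weeks it was at 4.76, 4.21 and 4.72 in cKO and 4.83, 4.91 and 6.20 in controls, with control replicate 3 above the rest (difference -0.75, SE 0.37, adjusted p = 0.869). Lef1 1454734_at ranged from 5.36 to 5.69 over the 12 cortex arrays and differed by 0.08 (SE 0.11) at 4 weeks and by -0.06 (SE 0.11) at 8 weeks.

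Tcf7l2 varied more in the arrays labelled hippocampus than in the cortex, with a within-group SD of 0.68 against 0.54 on 1429428_at. On this probe set the labelled hippocampus signal was 10.28, 10.37 and 9.81 in cKO and 10.31, 9.63 and 8.82 in controls at 4 weeks, and 8.56, 10.56 and 10.28 in cKO and 10.37, 10.61 and 10.52 in controls at 8 weeks. The lowest array was cKO replicate 1 at 8 weeks, the one with hippocampal markers, and the next was control replicate 3 at 4 weeks. The 4 probe sets followed each other there, with r from 0.765 to 0.992. The differences of 1429428_at were 0.57 (SE 0.45) at 4 weeks and -0.70 (SE 0.45) at 8 weeks, the latter -0.08 (SE 0.32, adjusted p = 0.980) without cKO replicate 1.

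In the hypothalamus cKO replicate 1 was the highest array for Tcf7l2 at both times. On 1429427_s_at the signal was 7.38, 6.30 and 5.93 in cKO and 5.93, 6.15 and 5.80 in controls at 4 weeks, and 7.21, 6.62 and 6.15 in cKO and 6.28, 6.16 and 6.15 in controls at 8 weeks. The differences were 0.58 (SE 0.32, adjusted p = 0.998) and 0.46 (SE 0.32, adjusted p = 0.940). A score of 9 measured thalamic markers was 0.37 and 0.69 in these 2 arrays and -0.29 to 0.05 in the other 10. Its part in the Tcf7l2 values was not tested.

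The letters that TCF/LEF factors are known to bind were looked up in the promoters of the members, to show which of the genes that respond to or carry the pathway hold them near their start. AACAAAG or its variants ATCAAAG or TACAAAG or TTCAAAG were searched on both strands in the 250 bases before each start, in RefSeq sequences of the build GRCm38.p6. Of 32851 promoters of all genes, 14.8% held at least 1 match. Of 12 promoters of 7 members with an entry, 3 did: that of Fzd7, 1 of 2 of Tcf7l2 and 1 of 4 of Lef1. The windows of 30 bases around the matches, written 5′ to 3′ on the strand of the gene with the match in capitals, were:
Fzd7, chr1:59482006-59482035, + strand: tccacagagaaAACAAAGcgcgctattgga
Tcf7l2, chr19:55895291-55895320, + strand, with the match on the other strand: caaacaaaatatcaggCTTTGTTcttttga
Lef1, chr3:131156136-131156165, + strand: caacctcagaaTACAAAGtaggattgcatt
The promoters of Nlk, Gsk3b, Ctnnb1 and Axin2 held none of these letters in this window. A match is a description of sequence only, and Fzd7 was the called gene among the 3.

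Dkk3, a secreted protein of the Dickkopf family whose effect on WNT signalling depends on the cell, split by probe set as Lrp6 did. On 1417312_at the cortex signal was 8.53, 8.70 and 9.48 in cKO and 9.33, 9.14 and 9.42 in controls at 4 weeks, and 8.97, 9.07 and 8.97 in cKO and 8.89, 8.66 and 8.19 in controls at 8 weeks. The low arrays at 4 weeks were again cKO replicates 1 and 2, and the lowest at 8 weeks was control replicate 3. Control replicate 2 at 8 weeks (8.66) was also below cKO replicate 2 at 4 weeks (8.70). The differences were -0.40 (SE 0.23, adjusted p = 0.299) and 0.42 (SE 0.23, adjusted p = 0.869), and the interaction was 0.82 (SE 0.32, adjusted p = 0.356). On 1448669_at they were 0.10 (SE 0.13) and -0.04 (SE 0.13). Dkk3, Lrp6 and Gsk3b stand on the study's list of transcripts with opposite changes at 4 and 8 weeks, so their opposite signs here are not independent evidence.

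In the arrays labelled hippocampus both probe sets of Dkk3 were high in cKO replicate 1 at 8 weeks. On 1417312_at the 8-week signal was 8.43, 6.67 and 6.91 in cKO and 6.89, 6.60 and 6.73 in controls. On 1448669_at the cKO arrays were at 9.33, 7.82 and 7.77 and the controls at 7.64, 7.57 and 7.64. The differences of 0.60 (SE 0.34) and 0.69 (SE 0.31, adjusted p = 0.840) became 0.05 (SE 0.15) and 0.18 (SE 0.12, adjusted p = 0.901) without that array.

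**Figure D4:**
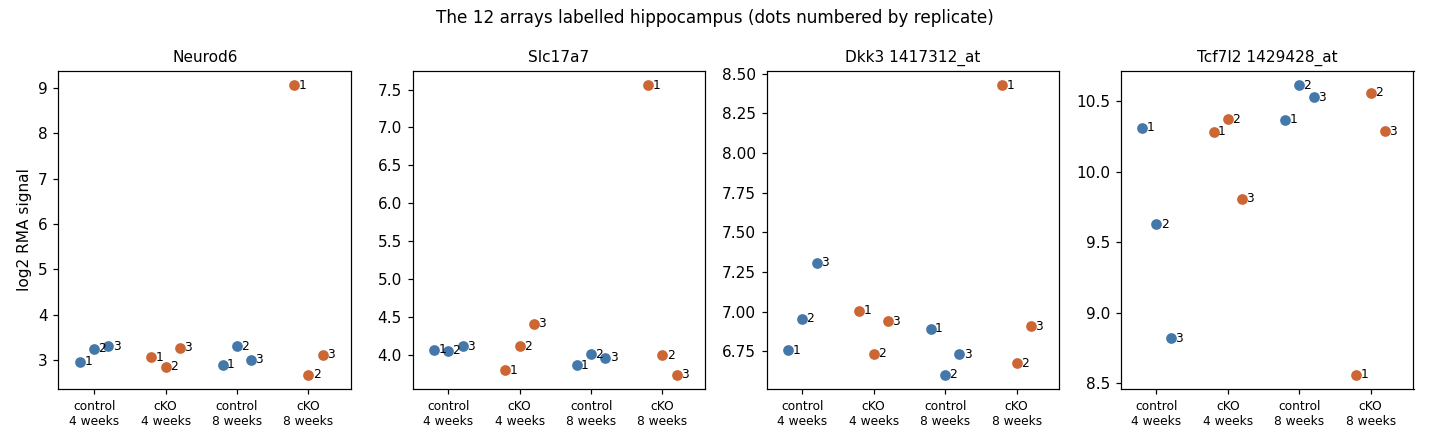
Log2 RMA signal in the 12 arrays labelled hippocampus of Neurod6 and Slc17a7, genes of forebrain excitatory neurons, and of Dkk3 and Tcf7l2, with dots numbered by replicate. In cKO replicate 1 at 8 weeks Neurod6, Slc17a7 and Dkk3 are the highest of the 12 arrays and Tcf7l2 is the lowest.

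Counted over all 26 probe sets, the 4-week differences in the cortex were positive for 14 and negative for 12, with a median of 0.06 against 0.08 over all probe sets. The groups did not overlap for 2 probe sets, or 7.69%, below the 17.1% of all probe sets. At 8 weeks they did not overlap for 8, or 30.8%, against 14.9% of all probe sets: Dkk3 1417312_at, Axin2 1421341_at, both Ctnnb1 1430533_a_at and 1450008_a_at, Gsk3b 1451020_at and Lrp6 1451022_at were higher in cKO mice, and Nlk 1456467_s_at and Tcf7l2 1429428_at were lower. Dkk3, Gsk3b and Lrp6 stand on the study's list of opposite changes, which was chosen on these arrays. The members too were chosen with earlier results of these data known, so this share is not independent evidence. Axin2 1421341_at lay below the filter. In the hypothalamus 0 of 26 did not overlap at 4 weeks (6.81% of all probe sets) and 1 at 8 weeks (11.8%). In the arrays labelled hippocampus 2 (10.5%) and 3 (13.2%) did not.

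**Figure D5:**
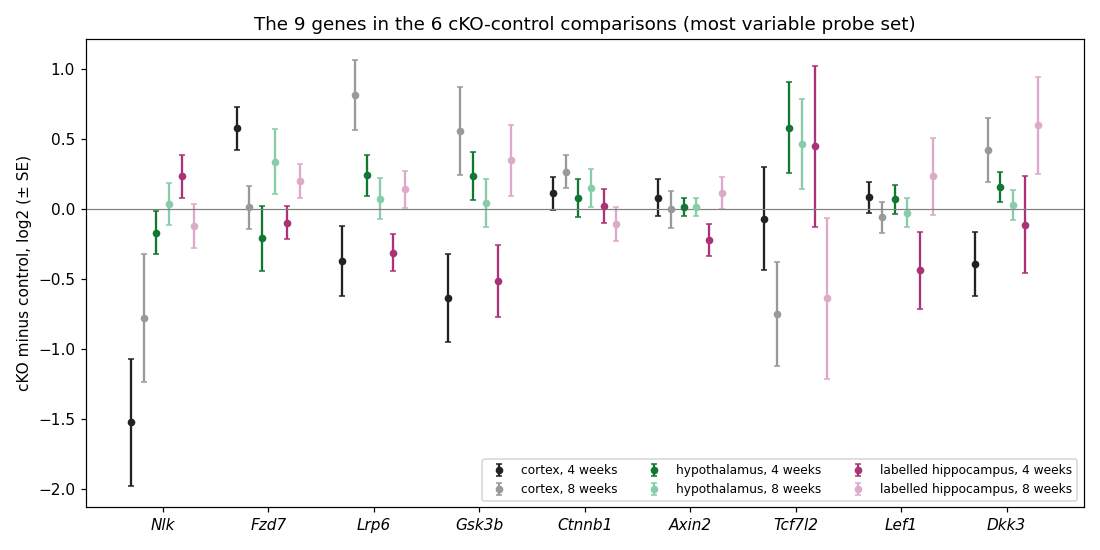
Difference of cKO and control mice on the log2 scale, with bars of ± SE, for the most variable probe set of each of the 9 genes in the 6 comparisons of tissue and time. The lowest value is that of Nlk in the cortex at 4 weeks (-1.53), and the values of Ctnnb1 and Axin2 stay between -0.22 and 0.26.

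The wider pathway was described by 105 genes: ligands, secretion factors, receptors, secreted inhibitors, the cytoplasmic chain, nuclear factors, target genes and partners of NLK. In the cortex at 4 weeks 90 were tested, of which 4 were called higher and 1 lower, beside 5.23% of all genes called. The median difference was 0.11, against 0.11 over all genes. Fbxw11, a β-TrCP subunit of the ubiquitin ligase that binds phosphorylated β-catenin, rose by 0.60 (SE 0.14, adjusted p = 0.113). Tab3, an adaptor of the kinase TAK1 that acts upstream of NLK, rose by 0.41 (SE 0.13, adjusted p = 0.148). Sfrp4, a secreted inhibitor of WNT ligands, rose by 0.40 (SE 0.12, adjusted p = 0.148). Fzd7 and Nlk were the remaining calls.

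By role, 1 of 17 tested receptors, 1 of 10 secreted inhibitors, 1 of 20 genes of the cytoplasmic chain and, with Nlk itself left aside, 1 of 7 NLK partners (Tab3) were called. No call was made among 17 ligands, 14 nuclear factors and 9 target genes. The medians were 0.19 for receptors, -0.06 for secreted inhibitors, 0.14 for nuclear factors and 0.08 for target genes, against 0.11 over all genes. At 8 weeks none of the 90 was called in the cortex. The lowest unadjusted p-values there were those of Lrp6, of Tab2 (0.71, SE 0.24, adjusted p = 0.869), the paralogue of Tab3, and of the WNT receptor Ryk (0.39, SE 0.14, adjusted p = 0.869). None of 96 tested pathway genes was called in the hypothalamus. There the lowest p-values were those of Lgr4, Rspo4 and Rspo2 at 4 weeks (-0.16, 0.19 and -0.21) and of Hipk2, Tcf7l1 and Apcdd1 at 8 weeks (0.27, 0.19 and 0.28). None of 90 was called in the arrays labelled hippocampus, with the lowest p-values for the ligands Wnt7b, Wnt5a and Wnt3a at 4 weeks (-0.44, -0.56 and 0.24) and for the receptors Fzd8, Lgr6 and Fzd9 at 8 weeks (-0.49, -0.39 and -0.22).

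The calls of the members rested on the choice of cortex arrays. Without control replicate 3 at 4 weeks the difference of Nlk 1456467_s_at was -2.16 (SE 0.31, adjusted p = 0.0163), and Nlk, Fzd7 and Axin2 were called with 46.3% of all genes. Without cKO replicate 3 it was -1.48 (SE 0.51, adjusted p = 0.0837), and Nlk, Fzd7, Lrp6, Gsk3b and Dkk3 were called with 28.5% of all genes. Without these 2 arrays and cKO replicate 2 at 8 weeks, an omission chosen after seeing the data, Nlk was at -2.12 (SE 0.17, adjusted p = 0.000281), and 6 of 9 members were called with 62% of all genes. The omitted 4-week arrays were those less like their own group than like the other, which widens the gap between groups by construction. By probe set 13 of 26 were called there, beside 41.9% of all probe sets, among them all 3 of Nlk (-2.12, -0.53 and -1.14) and probe sets of Gsk3b in both directions. In that setting 6 members also had a called interaction, as did 48.9% of all genes, and none was called at 8 weeks (0% of all genes). Without any 1 of the other 4-week arrays no member was called, and the difference of Nlk lay between -1.65 and -1.17. These 4 fits called 0 to 3 of all tested genes, at most 0.0204%, so the loss was not one of the members alone. Of the 12 fits that each left out a single cortex array, 9 called no member and 0 to 399 of all genes, at most 2.71%. The other 3, with 1264 to 6817 genes called, were those without control replicate 3 or cKO replicate 3 at 4 weeks or cKO replicate 2 at 8 weeks.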

How the data were processed

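The deposited values are log2 signals after RMA, which the authors ran for the arrays of each tissue; no version of RMA is given in the sources used here. They were used as they are. Probe sets were named by the platform's annotation. The detection calls that the study filtered on were not analysed here. Probe sets were ranked by the third-highest of 12 values of a tissue and kept until they covered as many genes as the methods give probe sets (26246 probe sets in cortex), with the most variable probe set for each gene.

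Each tissue was fitted once, with its 4 groups as levels, in limma 3.58.1 (R 4.3.3), which gave differences, SEs and two-sided p-values. Genes were called at an FDR of 15% after Benjamini-Hochberg adjustment over all tested genes. A second fit used all 45037 probe sets other than controls. The change was compared between cortex and hypothalamus with a correlation of 0.143 between arrays of the same animal (duplicateCorrelation, 11 animals with both). The code was tested on simulated data. No 2 arrays were identical (highest r = 0.998). An exact permutation test of 3 animals against 3 could not fall below 0.1. The limma p-values set a difference against the spread between the arrays of a group, each from another animal. In that spread, differences of dissection, RNA and array cannot be told apart from those of animals. The number of arrays limits the precision.

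The members, gene lists and named genes were chosen with earlier results of these data known. Named genes are the 9 members with every probe set, up to 10 called pathway genes or the 3 with the lowest p where none was called, and the 5 genes most correlated with Nlk, of which 1 is not reported here. Pax7, Otx2 and Gata3 were added after their values were seen. The brightest probe set of a gene served to check tissues. A marker score is the median over a list of each gene's deviation from its mean over the arrays of a tissue. Arrays with the same number were taken as pairs if their deviations from the group means correlated above 0.1 in all 3 pairs. Only the 8-week hypothalamus arrays met this (0.198, 0.264 and 0.271), by the data and not by the labels. Alternatives covered the filter, probe set choice, normalization, eBayes options, array weights, the replicate block and single arrays left out, and, chosen after seeing the data, 3 cortex arrays left out together and the methods' number taken as probe sets.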

Additional observations from a re-analysis of the deposited data

Results flagged for a closer look

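The change of Nlk in the cortex at 4 weeks exceeded that in the hypothalamus in the negative direction, by -1.43 (SE 0.49, adjusted p = 0.111 from limma), which a test of the difference itself called. In the cortex 2 of 3 control arrays lay above all cKO arrays, and the third met them.

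The change of Fzd7 in the cortex at 4 weeks exceeded that in the hypothalamus by 0.77 (SE 0.28, adjusted p = 0.119), also by a test of the difference itself. All 3 cKO arrays lay above all 3 controls in the cortex, and the groups overlapped in the hypothalamus. Both calls are beside 17.1% of all genes, and neither was made when arrays of the same animal were taken as independent. Both rest on the cortex arrays on which the study's list with Nlk and Fzd7 was chosen, so they are not independent evidence.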

How the results depend on the processing

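The study used limma for the arrays, and its methods give unpaired t-tests in a separate section on statistics. In the cortex at 4 weeks the count of called members was 2 by the reported fit. The count was 0 with 10000 genes, with the methods' number taken as probe sets, with arrays centred on their medians and with cyclic loess. It was also 0 at an FDR of 5%, with only the 6 arrays compared and with an unpaired t-test in place of limma. It was 1 with the probe set of highest mean and with robust eBayes, 6 with array weights (66% of all genes called), 6 without the 3 arrays that stand apart, and 0 to 5 without single arrays. With the replicate number as a block, which pairs no cortex arrays by the data, it was 0, with Nlk at -1.53 (adjusted p = 0.223) and Fzd7 at 0.58 (0.220); the block changed no call of a member in the other comparisons. Nlk lost its call at -1.53 with 10000 genes (adjusted p = 0.153), the methods' number as probe sets (0.155), robust eBayes (0.151), the 6 arrays (0.353) and the t-test (0.452), at -1.59 with centred arrays (0.171), at -1.67 with cyclic loess (0.197) and at -0.37 with the probe set of highest mean (0.237). Without single arrays it ranged from -2.16 to -1.17 (adjusted p from 0.0163 to 0.403). Gsk3b turned from -0.63 to 0.17 with the probe set of highest mean. In the fit by probe set the count, 1 as reported, was 0 with centred arrays and with a trend, 13 without the 3 arrays (41.9% of probe sets called), and 0 to 9 without single arrays. The interaction gave 6 members with array weights (50.7% of genes called), 6 without the 3 arrays and 0 to 4 without single arrays. The 8 minus 4 week difference in control mice gave 5 with array weights (10.1%) and 0 to 3. Between cortex and hypothalamus the count was 0 without the animal block and 0 to 5 without single cortex arrays, and between cortex and labelled hippocampus 0 to 3. The cause of these shifts was not tested. In the other comparisons of cKO and control mice no alternative called a member.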
